A study of Arabidopsis thaliana with 4 samples.

Results

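The genes described here are 10 genes of the cold-response pathway of *Arabidopsis thaliana*, of 37336 genes in the deposited table. They comprise 3 *CBF* transcription factor genes and 7 cold-regulated (*COR*-type) target genes, and were taken by locus identifier, having been chosen by their *s2lb-2* against wild-type expression difference and by what is known of their function. The differences between genotypes for these 10 genes are therefore given as a description, with no p-value for any of them, and the number of them called in the fit over all genes is set beside the share of all genes called. The genes are *CBF1* (AT4G25490), *CBF2* (AT4G25470), *CBF3* (AT4G25480), *COR15A* (AT2G42540), *COR15B* (AT2G42530), *COR47* (AT1G20440), *KIN1* (AT5G15960), *KIN2* (AT5G15970), *RD29A* (AT5G52310, also called *COR78*) and *COR413-PM1* (AT2G15970).

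The study profiled polyadenylated RNA of 6-day-old *s2lb-2* and wild-type (WT) Col-0 seedlings, with 2 libraries per genotype. S2Lb is a WD40 protein related to a subunit of the COMPASS-like complexes that place trimethylation on lysine 4 of histone H3, and *s2lb-2* is a single insertion line whose allele arose in the Nossen accession and was brought into Col-0 by repeated backcrosses. Nossen sequence that stayed linked to the insertion on chromosome 5 cannot be told apart from the loss of *S2Lb* in this design. *S2Lb* starts at base 26466172 of that chromosome. It also carries *KIN1* (from 5209717), *KIN2* (from 5211719) and *RD29A* (from 21240717). Whole seedlings were grown in long days and harvested in the light period, with no cold treatment stated other than the stratification of the seeds. The 2 libraries of a genotype came from different seed batches. *S2Lb* (AT5G66240) had 80.8 and 67.2 normalized counts in *s2lb-2*, against 1337 and 1613 in WT, which matches the sample titles, although the genotype field of the *s2lb-2* samples names an *SDG2* transgene. Between 34325097 and 39114300 reads per library were counted on genes.

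In cold plants, CBF proteins are made within a short time of chilling and bind the C-repeat/dehydration-responsive element (CRT/DRE) upstream of *COR* genes. Many *COR* genes encode hydrophilic proteins of the dehydrin or late embryogenesis abundant type that protect membranes and proteins when water freezes, and many also answer to abscisic acid through a second element, the ABRE. In unchilled seedlings *CBF* transcripts are low, follow the circadian clock and can be set off by handling.

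The sequences upstream of the genes are shown first. In the 500 bases before the start codon (RefSeq genome TAIR10.1, both strands searched), the CRT/DRE core CCGAC was found in 7 of the 10 genes, and these were all 7 *COR*-type genes. None of the 3 *CBF* windows held it. It occurred at least once in 23.3% of 27443 protein-coding genes, so its absence from 3 windows does not set the *CBF* genes apart. Much of some windows lay inside the annotated gene, which began 434 bases before the start codon in *CBF1* and 397 in *CBF3*. The windows of *COR15B* (560 bases) and *COR47* (1209 bases) lay wholly inside it. *RD29A* had 4 matches, a number that few genes reach, since 0.838% of all genes had 3 or more. *COR15A* had 2 matches and the others 1 each. The ABRE core ACGTG was found in 10 of the 10 genes, against 34.8% of all genes, with 5 matches in *KIN1* and 7 in *KIN2*, where a palindrome CACGTG counts on both strands. The CAMTA core CGCGT was found in 3 of 10, against 13.4% of all genes.

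The sites below are those of the neighbouring gene pairs that the results turn on, with the CRT/DRE core in capitals and 10 bases on either side, written on the strand of the gene. The *KIN1* and *KIN2* sites differed at 1 of 25 bases and lay 178 and 185 bases before the start codon. Those of *COR15A* and *COR15B* differed at 5 bases and lay 266 and 265 bases before it. The *RD29A* site is the one most like that of its neighbour *RD29B*, from which it differed at 6 bases.
KIN1, chr5:5209804-5209828: taaatagctaCCGACataaggcaaa
KIN2, chr5:5211771-5211795: taaaaagctaCCGACataaggcaaa
COR15A, chr2:17712218-17712242: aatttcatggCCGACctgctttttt
COR15B, chr2:17710124-17710148: aacttgatggCCGACctcttttttc
RD29A, chr5:21240567-21240591: tagacatggaCCGACtactaataat
RD29B, chr5:21236875-21236899: taaacgtggaCCGACtaaaactaaa
The *KIN1*, *KIN2*, *COR15A* and *COR15B* sites fell in annotated exon sequence before the start codon, because RefSeq places the gene starts far upstream, and the *RD29A* and *RD29B* sites fell outside the annotated genes. A match is a stretch of letters, and binding was not measured.

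**Figure D1:**
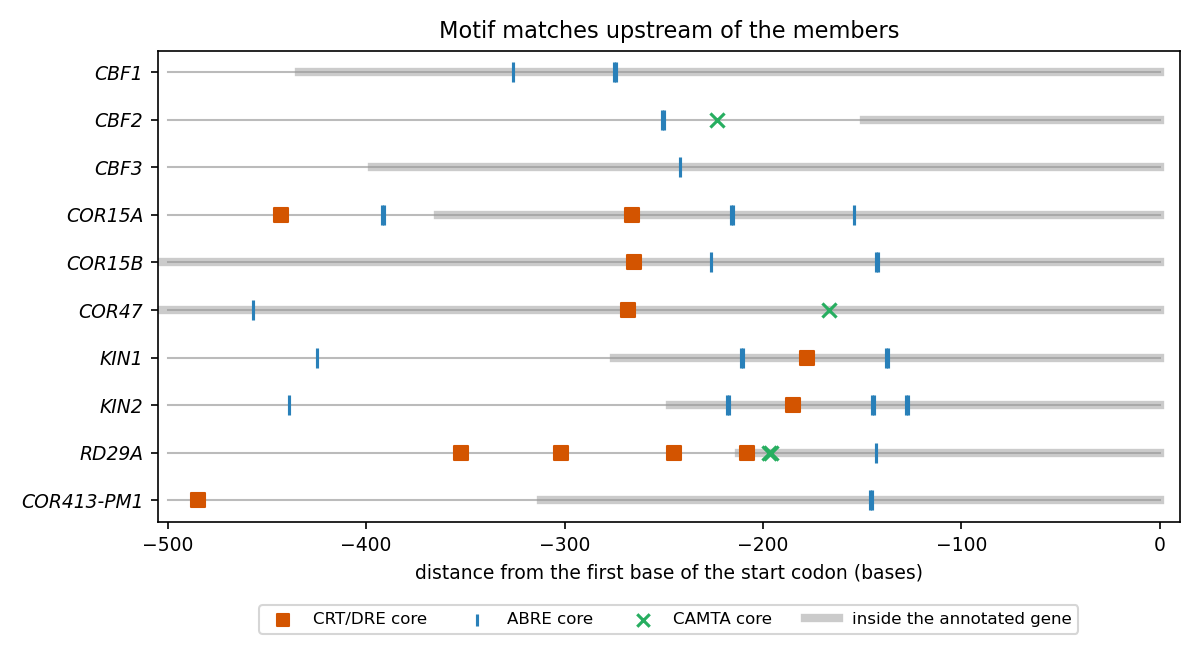
Matches of the CRT/DRE, ABRE and CAMTA cores in the 500 bases before the start codon of the 10 genes; the x axis is the distance from the first base of the start codon in bases, and the thick grey bar is the part inside the annotated gene. CRT/DRE squares stand on all 7 *COR*-type genes, with 4 on *RD29A*, and on none of the 3 *CBF* genes.

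*CBF1*, *CBF2* and *CBF3*, also named *DREB1B*, *DREB1C* and *DREB1A*, encode the AP2-type activators that switch on *COR* genes in the cold, and lie in tandem on chromosome 4 (13015250 to 13022996 in TAIR10.1). All 3 had lower mean counts in *s2lb-2*, and all 3 differed more between libraries of a genotype than any *COR*-type gene. *CBF1* had 78.8 and 2.07 normalized counts in the *s2lb-2* libraries, against 229.9 and 63.2 in WT. *CBF2* had 278.8 and 13.4 in *s2lb-2*, against 646.6 and 285.2 in WT. *CBF3* had 15.8 and 2.07 in *s2lb-2*, against 81.9 and 12.1 in WT. In each genotype library 2 was below library 1 for all 3 genes, and the second *s2lb-2* library held only 2 reads of *CBF1* and 2 of *CBF3*. The genotypes overlapped for *CBF1* and *CBF3*, and for *CBF2* the higher *s2lb-2* library was just under the lower WT library.

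The *CBF* fold changes depended on that one library. On the log2(normalized count + 1) scale, *CBF1* differed by -2.96 ± 1.54 (SE, limma, n = 2 per genotype), *CBF2* by -2.76 ± 1.34 and *CBF3* by -2.20 ± 1.14. The ratios of mean counts were 0.276 for *CBF1*, 0.314 for *CBF2* and 0.190 for *CBF3*. Without the second *s2lb-2* library the differences were -0.61, -0.62 and -0.97, and without the first they were -5.31, -4.90 and -3.42. The sign was the same in each of these fits, and the size was not settled by 2 libraries. *CBF3* also came to -0.87 without the first WT library.

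The *CBF* genes are near copies. Their coding sequences were 86.3% identical between *CBF1* and *CBF2*, 84.9% between *CBF1* and *CBF3* and 86.7% between *CBF2* and *CBF3*. Few reads of the study's 50-base length could be confused between them, since 2.48% of *CBF1*, 3.95% of *CBF2* and 0.596% of *CBF3* windows of that length also occur in another gene. *CBF2* made up most of the *CBF* signal in every library. Per length, *CBF1* was 18.6% and 11.1% of *CBF1* plus *CBF2* in *s2lb-2*, against 22.4% and 15.2% in WT, so the balance between the 2 copies overlapped between genotypes.

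**Figure D2:**
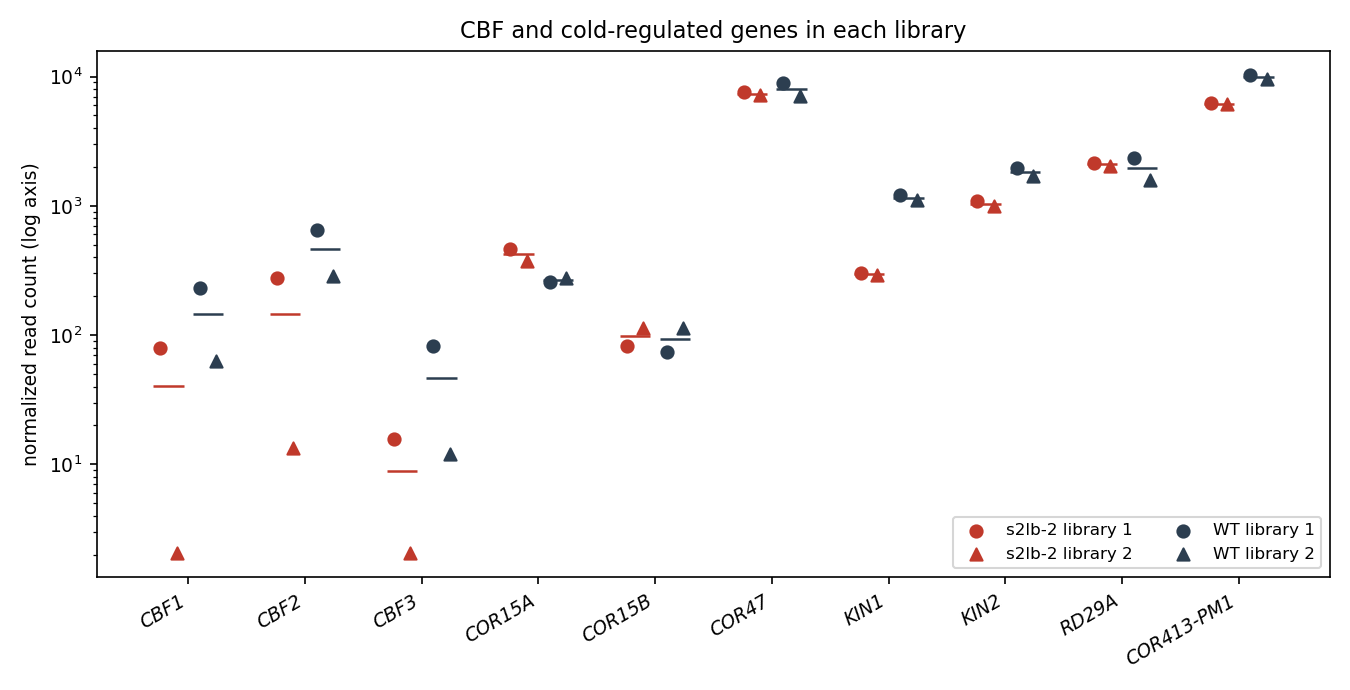
Normalized read counts (log axis) of the 10 genes in each of the 4 libraries, with *s2lb-2* (red) left of WT (dark) and a line at each genotype's mean. The *CBF* libraries of *s2lb-2* lie 7.62-fold (*CBF3*) to 38.1-fold (*CBF1*) apart, whereas *KIN1*, *KIN2* and *COR413-PM1* form tight pairs, with *s2lb-2* below WT.

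Among the 7 target genes, *KIN1*, *KIN2* and *COR413-PM1* were lower in *s2lb-2*, *COR15A* was higher, and *COR15B*, *COR47* and *RD29A* overlapped between genotypes. *KIN1* and *KIN2* (also *COR6.6*) encode very small hydrophilic proteins. *KIN1* had 304.4 and 292.7 normalized counts in *s2lb-2*, against 1214 and 1104 in WT. *KIN2* had 1083 and 989.8 in *s2lb-2*, against 1968 and 1703 in WT. Both genes had tight libraries and did not overlap between genotypes. *KIN1* differed by -1.95 ± 0.11 and *KIN2* by -0.82 ± 0.11 (log2, SE), with ratios of means of 0.258 and 0.565.

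*KIN1* and *KIN2* lie 892 bases apart on chromosome 5, and their coding sequences are shown because the 2 genes differed so unequally while being almost the same. They run from chr5:5209992-5210473 and chr5:5211966-5212441 over 3 coding exons each, on the plus strand, and 191 of 201 bases are identical (95.0%). The 10 differing bases are in capitals.
KIN1: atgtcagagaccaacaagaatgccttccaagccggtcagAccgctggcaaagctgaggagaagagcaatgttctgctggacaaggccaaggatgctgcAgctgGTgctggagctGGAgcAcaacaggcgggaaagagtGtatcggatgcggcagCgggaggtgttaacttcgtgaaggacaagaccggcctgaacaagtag
KIN2: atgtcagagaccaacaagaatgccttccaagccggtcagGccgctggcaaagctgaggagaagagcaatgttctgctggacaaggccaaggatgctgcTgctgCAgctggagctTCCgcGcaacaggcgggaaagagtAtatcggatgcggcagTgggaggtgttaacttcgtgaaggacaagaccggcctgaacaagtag
The differences are spread so that only 1.28% of *KIN1* and 1.43% of *KIN2* windows of 50 bases, over the whole transcripts, are shared between the 2 genes. Per length, *KIN1* was 20.3% and 21.1% of *KIN1* plus *KIN2* in the *s2lb-2* libraries, against 35.8% and 37.0% in WT. The log2 ratio of *KIN1* to *KIN2* within a library averaged -1.94 in *s2lb-2* and -0.81 in WT, a difference of -1.13, with no overlap between the genotypes.

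Of 3 other loci listed as relatives of *KIN1* and *KIN2*, AT5G38760 had 0 reads in all 4 libraries and was not detectable at this depth. AT3G02480 had 1354 and 957.7 normalized counts in *s2lb-2*, against 1100 and 999.5 in WT, and AT5G53820 had 17.7 and 12.4 in *s2lb-2*, against 11.6 and 24.2 in WT. Both overlapped between genotypes and neither passed the test (limma with Benjamini-Hochberg adjustment, adjusted p = 0.782 and 0.896).

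*COR413-PM1* encodes a membrane protein placed in the plasma membrane. It had 6261 and 6090 normalized counts in *s2lb-2*, against 10333 and 9531 in WT. The difference was -0.68 ± 0.08 (log2, SE), a ratio of means of 0.622, and the higher library was 1.03 times the lower in *s2lb-2* and 1.08 times in WT. Its single CRT/DRE core, 485 bases before the start codon, lay farthest from the start codon of any in the 7 target genes.

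*COR15A* and *COR15B* encode chloroplast proteins that stabilise inner membranes during freezing, and lie in tandem on chromosome 2 with 7 bases between them. *COR15A* had 466.9 and 375.4 normalized counts in *s2lb-2*, against 257.2 and 278.7 in WT. It was the only one of the 10 genes with both *s2lb-2* libraries above both WT libraries, at 0.64 ± 0.16 (log2, SE) and a ratio of means of 1.57. *COR15B* had 81.8 and 113.8 in *s2lb-2*, against 74.5 and 113.3 in WT, and differed by 0.07 ± 0.30. The 2 coding sequences were 82.6% identical. Of *COR15B* windows, 27.3% also occur in AT2G42520, a gene on the opposite strand that overlaps it, and the strand setting used for counting is not stated, so reads of the pair cannot be told apart there. AT4G07385 overlaps *CBF3* on the opposite strand, but shares no 50-base transcript window with it.

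*COR47*, a dehydrin gene, and *RD29A*, the gene whose promoter is the classic reporter of drought, salt and cold signals, were close to equal in the 2 genotypes. *COR47* had 7529 and 7225 normalized counts in *s2lb-2*, against 8828 and 7125 in WT, and differed by -0.10 ± 0.12. *RD29A* had 2135 and 2042 in *s2lb-2*, against 2325 and 1589 in WT, and differed by 0.12 ± 0.18. For both genes the 2 *s2lb-2* values lay between the 2 WT values.

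**Figure D3:**
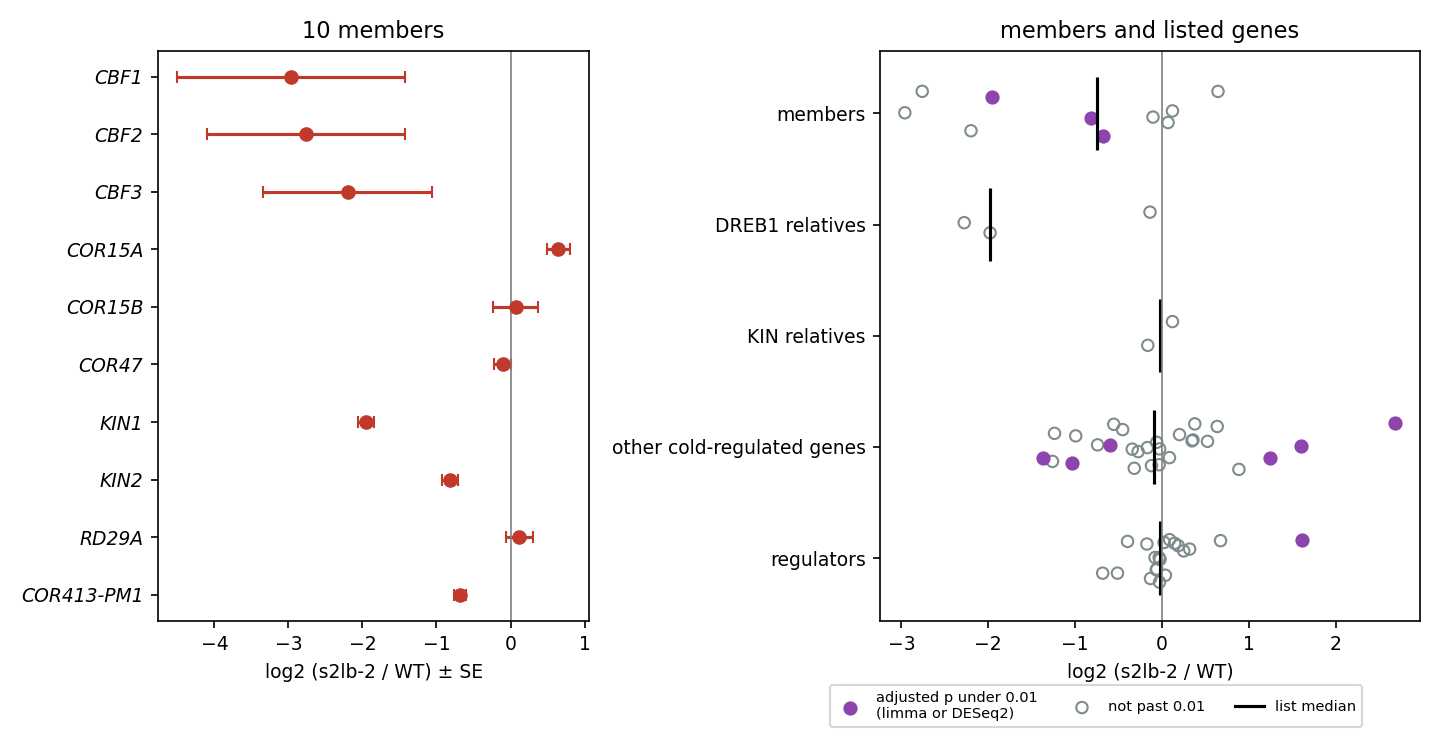
Left, log2 (*s2lb-2* / WT) of the 10 genes on the log2(normalized count + 1) scale, with the limma standard error as bars; right, the same value for every tested gene of the 5 lists, filled where the adjusted p was under 0.01 by limma or by DESeq2 and with a black line at the list median. The *CBF* bars span more than 2 units, while the *KIN1* bar spans little and lies near -1.95.

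Over the 10 genes, the median log2 difference was -0.75, beside -0.0022 over the 23723 genes tested. The limma fit at an adjusted p under 0.01 called 1 of the 10, *KIN1*, as lower and 0 as higher, where 0.059% of all tested genes were called lower and 0.0632% higher. When 1 library was dropped, whichever it was, no gene in the table was called by limma at 0.01, and the *KIN1* difference was -2.02 to -1.88. At an unadjusted p under 0.05 there were 3 lower and 1 higher, where 8.9% of all tested genes were lower and 8.46% higher. At an adjusted p under 0.05 it called 3 as lower (*KIN1*, *KIN2* and *COR413-PM1*), where 0.923% were called lower and 0.674% higher. DESeq2 on the recovered reads called the same 3 genes as lower at 0.01 and 0 as higher, where 1.85% of genes were called lower and 1.38% higher. Both *s2lb-2* libraries lay below both WT libraries for 4 of the 10 genes and above them for 1, while 24.7% of all tested genes lay below and 24.8% above. As this comparison chose the genes, nothing is read from these counts.

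Levels per length, as TPM (the share of reads after division by exon length, computed from the recovered reads), placed the 10 genes over more than 2 decades. In *s2lb-2*, *COR413-PM1* had 250.8 ± 8.62 TPM (SD, n = 2), *COR47* 140.2 ± 3.48 and *KIN2* 60.9 ± 0.610, followed by *RD29A* at 34.6 ± 0.767, *KIN1* at 15.9 ± 0.418 and *COR15A* at 11.7 ± 1.17. In WT, *COR413-PM1* had 395.2 ± 17.5 TPM, *COR47* 148.5 ± 20.5, *KIN2* 105.7 ± 9.45 and *KIN1* 60.4 ± 3.31, followed by *RD29A* at 31.7 ± 8.03 and *COR15A* at 7.32 ± 0.510. *KIN1* thus stood above *RD29A* in WT and below it in *s2lb-2*. The remaining genes were *COR15B* and the 3 *CBF* genes. *CBF2* had 6.31 ± 8.05 TPM in *s2lb-2* and 20.4 ± 10.9 TPM in WT, and *CBF1* had 1.41 ± 1.89 TPM in *s2lb-2* and 5.18 ± 4.12 TPM in WT. *CBF3* had 0.275 ± 0.292 TPM in *s2lb-2* and 1.45 ± 1.52 TPM in WT, and *COR15B* had 2.74 ± 0.778 TPM in *s2lb-2* and 2.57 ± 0.782 TPM in WT. In *s2lb-2* the libraries of *CBF2*, *COR15B* and *CBF1* overlapped with one another. Those of *CBF2* also overlapped with *COR15A*, and those of *CBF1* with *CBF3*. In WT the libraries of *CBF2* overlapped with those of *RD29A*, and those of *CBF1* with *COR15A*, *COR15B* and *CBF3*. The WT libraries of *COR15B* and *CBF3* also overlapped.

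In 2 of the 5 neighbour pairs outside the *CBF* cluster the ratio between the genes differed by more than 1 log2 unit between genotypes, as the plot of ratios within libraries shows. *RD29B*, the abscisic acid-responsive neighbour of *RD29A* on chromosome 5, had 966.3 and 683.6 normalized counts in *s2lb-2*, against 128.1 and 123.6 in WT. Its difference was 2.68 ± 0.19 (log2, SE; limma with Benjamini-Hochberg adjustment, adjusted p = 0.0108, DESeq2 adjusted p = 1.12e-24), and it was the largest in its list, while that of *RD29A*, 1185 bases away, was 0.12. Per length, *RD29A* was 64.3% and 70.9% of the 2 genes in *s2lb-2*, against 93.7% and 91.3% in WT. *ERD10*, a dehydrin gene next to *COR47*, had 3943 and 3497 normalized counts in *s2lb-2*, against 5667 and 3916 in WT, and differed by -0.34 ± 0.18 (limma adjusted p = 0.405). The log2 ratio of *COR47* to *ERD10* averaged 0.48 in *s2lb-2* and 0.24 in WT.

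**Figure D4:**
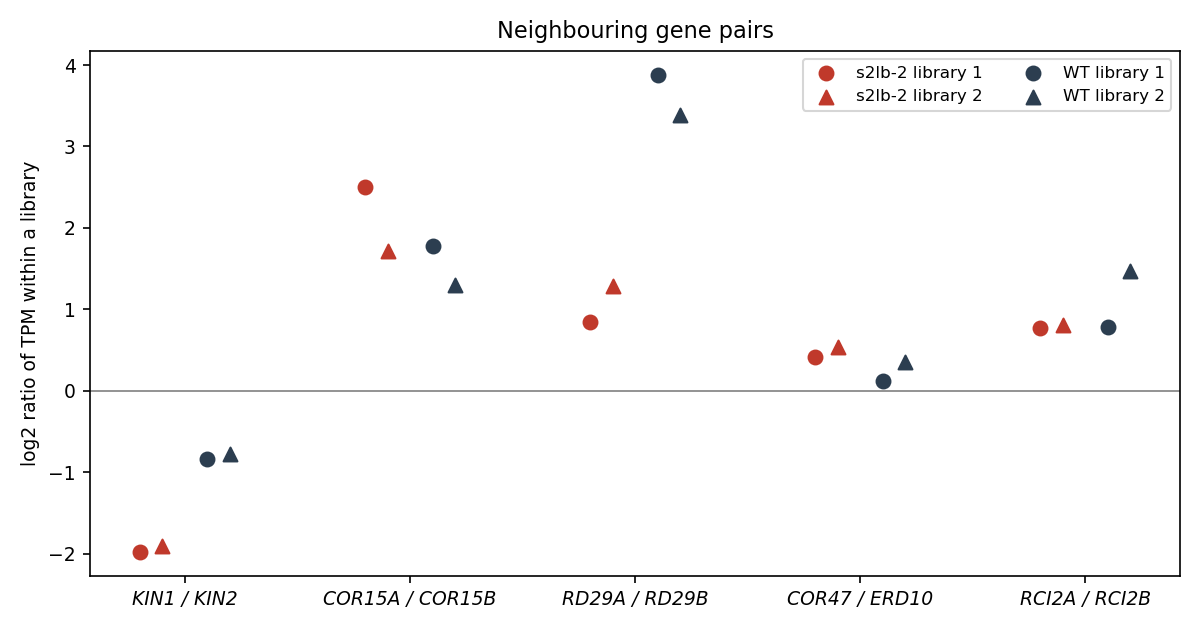
Log2 ratio of TPM of the first gene to the second within each library for 5 neighbouring pairs, *s2lb-2* (red) left of WT (dark). *KIN1* / *KIN2* and *RD29A* / *RD29B* sit lower in both *s2lb-2* libraries by more than 1 unit, while the genotype means of the other 3 pairs lie less than 1 unit apart.

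The listed regulators of the pathway were 20 genes for upstream activators, repressors, clock and light factors, and all 20 were tested. At an adjusted p under 0.01 limma called 1 higher (*LHY*) and 0 lower, where 0.0632% of all tested genes were called higher and 0.059% lower. The median log2 difference of the list was -0.03. At an unadjusted p under 0.05 there were 2 higher and 2 lower, beside 8.46% and 8.9% of all tested genes. The libraries of the genotypes did not overlap for 5 higher and 3 lower genes, beside 24.8% and 24.7% of all tested genes. DESeq2 at 0.01 called 1.38% of all genes higher and 1.85% lower. *LHY*, a morning clock factor that binds the *CBF* locus, rose to 1232 and 1317 normalized counts in *s2lb-2*, against 428.2 and 404.1 in WT, by 1.61 ± 0.10 (log2, SE; limma with Benjamini-Hochberg adjustment, adjusted p = 0.0084). DESeq2 called the same single gene, and the difference was 1.56 to 1.66 with any 1 library left out, fits in which limma called 0 of all genes at 0.01, *S2Lb* included. The lowest of the list was *ZAT12*, a zinc finger repressor of *CBF* genes, with 784.1 and 206.9 normalized counts in *s2lb-2*, against 948.8 and 442.2 in WT (limma adjusted p = 0.653).

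The 3 relatives of the *CBF* genes outside the cluster, all genes of AP2-type factors, were low. *DDF1* had 42.4 and 2.07 normalized counts in *s2lb-2*, against 85.0 and 35.3 in WT, with its second *s2lb-2* library the lowest, as for the *CBF* genes (limma adjusted p = 0.414). *DDF2* had 0 and 1.03 in *s2lb-2*, against 7.35 and 2.79 in WT (limma adjusted p = 0.269). *CBF4* had 12.8 and 3.10 in *s2lb-2*, against 9.45 and 5.57 in WT (limma adjusted p = 0.944).

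Of 28 other cold-regulated genes, all 28 were tested and the median log2 difference was -0.09. At an adjusted p under 0.01 limma called 0, where 0.0632% of all tested genes were called higher and 0.059% lower. At an unadjusted p under 0.05 there were 11 (6 higher and 5 lower), beside 17.4% of all tested genes in either direction. At an adjusted p under 0.05 limma called 1 higher and 2 lower, where 0.674% of all tested genes were called higher and 0.923% lower. DESeq2 called 3 higher (*RD29B*, *RAB18* and *LTP4*) and 3 lower (*RCI2A*, *RCI2B* and *GRP7*) at 0.01, where 1.38% of genes were called higher and 1.85% lower. At 0.01 edgeR called 1, beside 41 of all tested genes. The genes that DESeq2 called in this list lay in both directions.

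*RD29B* is described above with its neighbour. Like *RAB18* and *LTP4*, it lies on chromosome 5, which also carries *S2Lb*. *RD29B* starts at base 21237021, *LTP4* at 23924990 and *RAB18* at 26518277, against 26466172 for *S2Lb*. The part of linked Nossen sequence in the differences of these genes was not tested. *RAB18*, an abscisic acid-responsive dehydrin gene, had 2011 and 1095 normalized counts in *s2lb-2*, against 749.4 and 523.9 in WT (log2 1.24 ± 0.32, limma adjusted p = 0.141, DESeq2 adjusted p = 1.08e-03). *LTP4*, for a lipid transfer protein, had 232.5 and 169.6 in *s2lb-2*, against 52.5 and 80.8 in WT (log2 1.59 ± 0.29, limma adjusted p = 0.0801, DESeq2 adjusted p = 7.63e-04). The 3 lower genes were of mixed kinds, and 2 of them are a tandem pair on chromosome 3.

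*RCI2A* and *RCI2B* encode very small hydrophobic membrane proteins. *RCI2A* had 807.7 and 1082 normalized counts in *s2lb-2*, against 2119 and 2779 in WT (log2 -1.38 ± 0.19, limma adjusted p = 0.0413, DESeq2 adjusted p = 1.71e-08). *RCI2B* had 467.9 and 613.3 in *s2lb-2*, against 1223 and 993.0 in WT (log2 -1.04 ± 0.18, limma adjusted p = 0.0647, DESeq2 adjusted p = 6.65e-05). Neither held the CRT/DRE core in its 500-base window, and 2 genes overlap *RCI2A* on the opposite strand. *GRP7*, a clock-controlled glycine-rich RNA-binding protein gene, had 12507 and 12624 in *s2lb-2*, against 19314 and 18703 in WT (log2 -0.60 ± 0.07, limma adjusted p = 0.0333, DESeq2 adjusted p = 2.17e-06).

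The genes whose profile was closest to *CBF1* over the 4 libraries were sought among 16263 other genes with a mean of at least 100, by the Euclidean distance between log2 values centred on each gene's mean. *CBF3*, *DDF1*, *DDF2* and *CBF4* had means under 100 and were not among these candidates. The closest candidate was *CBF2* (distance 0.60), and the other 4 named here lay at 1.52 or more. Of these, AT3G60980, AT3G61010 and AT3G61020, all near one another on chromosome 3, shared the low second *s2lb-2* library but not the spread in WT. The *s2lb-2* libraries came from different seed batches, and the part of a difference between these batches, for example on chromosome 3, in the *CBF* values was not tested. AT3G61010 had 705.3 and 49.6 normalized counts in *s2lb-2*, against 1147 and 1183 in WT. *ORA47*, an AP2-type factor gene, had 371.3 and 39.3 in *s2lb-2*, against 743.1 and 179.3 in WT, and so was low in library 2 of both genotypes, as *CBF1* was.

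Because late embryos also express hydrophilic proteins of the *COR* type, and organs differ in them, 3 marker lists were followed beside the 10 genes. The summed counts of 11 seed maturation genes were 300.4 and 57.9 in *s2lb-2*, against 548.9 and 99.4 in WT, with *SESA1*, *SESA3* and *OLEO2* at 0 in at least 1 library. Of these counts, *CRA1* alone held 112.3 and 19.65 in *s2lb-2*, against 301.2 and 16.7 in WT. The sum of library 1 was the higher in both genotypes, as for the *CBF* genes. Single genes could differ from the sum, and *SESA2* had 5.25 and 12.1 in WT. *OLEO2*, the lowest of the list, had 2.955 and 0 in *s2lb-2*, against 45.1 and 17.65 in WT. It differed by -3.88 ± 0.84 (log2, SE; limma adjusted p = 0.108, DESeq2 adjusted p = 0.0149). *SESA3*, the highest, had 35.5 and 1.03 in *s2lb-2*, against 8.40 and 0 in WT (limma adjusted p = 0.696). Of the 11 genes, 5 had differences above 0 and 6 below. The *KIN1* libraries of a genotype lay at most 1.1-fold apart. The 8 root genes summed to 65398 and 63502 in *s2lb-2*, against 90161 and 79312 in WT, of which all but 3647 and 3774, against 4074 and 3106, came from *PYK10*, and the 8 green tissue genes to 2843054 and 2531532, against 2865756 and 2790542. Limma at 0.01 and DESeq2 at 0.01 called 0 of the markers, while 4 of 27 had an unadjusted limma p under 0.05, beside the 17.4% of all tested genes. The part of tissue make-up in the *KIN1* and *COR413-PM1* differences was not tested, and in whole seedlings fewer cells of a type and less RNA per cell cannot be told apart.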

How the data were processed

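Strand-specific libraries of polyadenylated RNA from whole seedlings were sequenced as single 50-base reads, mapped by the authors with STAR (2.5.4b) on TAIR10 with the Araport11 annotation and counted per gene. The deposited values are the authors' read counts divided by 1 DESeq2 size factor per library, so the signal in the table is a normalized count. Of the values, 100% were whole multiples of the step of their library (tolerance 1e-06), and these whole reads were used for count models and TPM, with exon lengths from RefSeq TAIR10.1 for 37051 genes (285 had none). A second deposited table holds the authors' own comparison and was not used. The test was limma 3.58.1 on log2(normalized count + 1), over genes whose mean was 1 or more (trend, Benjamini-Hochberg, adjusted p under 0.01). DESeq2 1.42.0, edgeR 4.0.16, limma-voom, TMM factors, other pseudocounts (0.5 and 5) and filters (none, and a mean of at least 10), a block for the replicate number and leaving out each library were alternatives. The tests were checked on simulated counts that gave all genes the same dispersion. That check does not cover genes that spread as widely between libraries as the *CBF* genes. Depth was 34325097 to 39114300 reads on genes per library. With n = 2, a limma p-value sets the genotype difference against the spread between 2 seed batches per genotype, moderated towards a trend over all genes. Sequences come from RefSeq TAIR10.1, since the tables carry no coordinates, and similarity was computed with Biopython 1.88.

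The 10 genes and the lists were chosen with earlier results of these data known, so the p-values of list genes are also to be read as description. Of the lists beside the 10 genes, a gene is named if limma or DESeq2 called it at 0.01, if it had the highest or lowest log2 difference of its list, or if it neighbours or is a relative of 1 of the 10; *S2Lb* is the check of the labels, and the 5 genes nearest to the gene with the largest difference are a description.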

Additional observations from a re-analysis of the deposited data

How the results depend on the processing

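With 2 libraries per genotype, the number of genes called depended on the tool. At an adjusted p under 0.01, limma called 29 genes, against 707 with DESeq2, 663 with a block for the replicate number and 379 at an adjusted p under 0.05 without it. Of the 10 genes, 1 was called by limma, and 3 with DESeq2, with the replicate block and at 0.05. Of the 28 other cold-regulated genes, 0 were called by limma, 6 with DESeq2, 8 with the block, 3 at 0.05 and 1 with edgeR. Of the 20 regulators, 1 was called, and 2 with the block. Leaving out a library left 1 library in that genotype, and for these fits the sizes of the differences are given below. The labels do not say that a replicate number marks a shared batch, and the correlation between the deviations of same-numbered libraries was 0.178. The differences of *CBF4* (0.091 with DESeq2, 0.11 with edgeR, and from -1.01 to 0.74 without a library) and of *ZAT12* (from -1.64 to 0.28 without a library) changed sign. The differences of *COR15B*, *COR47* and *RD29A* ranged across 0 when a library was left out (-0.23 to 0.37, -0.26 to 0.05 and -0.16 to 0.39). *CBF1* ranged from -5.31 to -0.61, and the second *s2lb-2* library held 2 of its reads, which limits its precision. The cause of these changes was not tested.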
